A study of Mus musculus with 6 samples.

Results

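The genes Tjp1, Ocln, Cldn3, Cldn5, F11r, Cxadr, Nectin2, Cdh2 and Gja1, which take part in the junctions of the blood-testis barrier, were followed across RNA-seq libraries labelled as purified mouse pachytene cells. They were chosen by name from what is known of junctions between Sertoli cells and germ cells, with earlier results of these data also known. All 9 were found among the 54532 genes of each library. The study compared cells labelled as pachytene, prepared from testis by STA-PUT (sedimentation of a cell suspension by size), in mice of about 80 days. The groups were EE_KO (MAPSEE;MAPS-/-, labelled as overexpression of MAPS on a KO background), KO (MAPS-/-, without the pachytene protein MAPS) and WT, with 2 libraries each. EE_KO and KO thus share the MAPS deletion. For each group 3 mice of 1 genotype were used over 2 experiments. The labels give neither the promoter that drives MAPS in EE_KO, nor what EE stands for, nor whether a library pools mice, so the p-values cover no more than the variation seen between 2 libraries of a group.

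Sertoli cells, the somatic cells that hold the germ cells of the seminiferous tubule, join each other near the base of the tubule by tight junctions, basal ectoplasmic specializations (actin-lined adherens junctions), gap junctions and desmosomes in 1 shared belt. This belt is the blood-testis barrier. Spermatogonia lie outside it, while spermatocytes cross it early in meiosis and are in pachytene on its inner side. Tight junction strands are made of claudins and occludin and are held by ZO scaffolds, while nectins, cadherins and junctional adhesion molecules join the membranes of neighbours and connexins form channels between them.

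The labelled cell type was checked against markers before the junction genes were read. The gene of MAPS, 1700102P08Rik, stood at 109 and 82.2 FPKM (fragments per kilobase of gene, scaled to the size of the library) in EE_KO, 7.97 and 10.1 in KO and 157.0 and 150.2 in WT. The 12 pachytene markers summed to 6025 and 6503 FPKM in EE_KO, 270.1 and 314.5 in KO and 7008 and 6358 in WT. In the KO libraries labelled as pachytene cells, their summed level was 4.37% of WT. Sycp1 among them did not fall with the others, as given below. The 26 Sertoli markers summed to 748 and 385 FPKM in EE_KO, 6676 and 6423 in KO and 466 and 467 in WT. The 14 Leydig markers summed to 231 and 114 FPKM in EE_KO, 2876 and 2663 in KO and 84.1 and 147 in WT. No Sertoli or Leydig marker was at 0 in any library. The libraries held 14178387 to 16565238 reads on genes, recovered from the FPKM values and gene lengths. For a gene of 2 kb a single read gives 0.0341 and 0.0334 FPKM in EE_KO, 0.0278 and 0.0288 in KO and 0.0357 and 0.0330 in WT. A read thus counts for less in KO on the deposited scale. Reads on genes were not more in KO (15886958 and 14178387) than in WT (15947288 and 16234001).

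The promoters of members with large, middle and small rises in KO against WT are shown, since the members changed by unequal amounts. Windows run from 250 to 51 bases before the RefSeq start (GRCm38.p6), are printed 5′ to 3′ on the gene's strand and hold no GENCODE exon. Windows of 7 members were examined, without Cxadr and without Cdh2, the member that changed least. Nectin2 and Gja1 are shown for their large changes, Cldn5 for a middle one, and Tjp1 and Cldn3 for small ones. Capitals mark matches, on either strand, to 8 motifs: the GC box GGGCGG, the CCAAT box, the TATA box TATAAA, the AP-1 motif TGANTCA, the cAMP response element TGACGTCA, the E-box CACGTG, the GATA motif AGATAA and the SOX motif AACAAT.
Nectin2, chr7:19749624-19749823, minus strand: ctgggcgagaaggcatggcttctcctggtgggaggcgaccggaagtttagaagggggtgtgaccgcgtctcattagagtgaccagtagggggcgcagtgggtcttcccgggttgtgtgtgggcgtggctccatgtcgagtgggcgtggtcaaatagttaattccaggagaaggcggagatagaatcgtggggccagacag
Gja1, chr10:56377050-56377249, plus strand: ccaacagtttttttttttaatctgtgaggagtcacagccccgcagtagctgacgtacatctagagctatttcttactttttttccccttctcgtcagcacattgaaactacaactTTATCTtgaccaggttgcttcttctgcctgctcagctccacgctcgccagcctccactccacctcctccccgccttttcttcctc
Cldn5, chr16:18776597-18776796, plus strand: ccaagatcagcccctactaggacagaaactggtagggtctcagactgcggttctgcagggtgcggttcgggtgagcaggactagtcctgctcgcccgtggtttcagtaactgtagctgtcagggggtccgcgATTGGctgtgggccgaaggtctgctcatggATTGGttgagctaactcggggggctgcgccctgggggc
Tjp1, chr7:65371295-65371494, minus strand: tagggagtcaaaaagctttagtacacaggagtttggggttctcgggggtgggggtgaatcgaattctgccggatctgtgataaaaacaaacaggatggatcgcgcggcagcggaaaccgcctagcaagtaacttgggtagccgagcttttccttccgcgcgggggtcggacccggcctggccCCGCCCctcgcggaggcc
Cldn3, chr5:134985964-134986163, plus strand: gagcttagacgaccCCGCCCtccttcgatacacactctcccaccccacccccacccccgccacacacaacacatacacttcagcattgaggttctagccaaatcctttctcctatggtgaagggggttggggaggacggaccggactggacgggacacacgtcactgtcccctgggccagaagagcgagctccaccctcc
Tjp1 and Cldn3 each held 1 GC box, which 24.64% of 32851 mouse promoter windows of the same length hold. The exon-free window of Ocln, a large responder not printed here, also held 1 GC box. The F11r window, which overlaps an exon of Gm26641 and is not printed, held 3 CCAAT matches and 1 AP-1 match (5.57% of windows). Gja1 held 1 GATA match (8.42% of windows) and Cldn5 held 2 CCAAT matches (28.43%), while the Nectin2 window held none of the 8 motifs. GC content was 59.5% for Nectin2, 48.5% for Gja1, 61.5% for Cldn5, 60.0% for Tjp1 and 61.0% for Cldn3, against a median of 51.5% over all windows. GENCODE places further starts of Nectin2 and Tjp1 upstream of these windows. A match is a description of letters and not of a factor's binding.

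In KO against WT the junction genes were higher except for Cdh2. Nectin2, F11r, Gja1 and Ocln stood more than 10-fold above WT, Cldn5 about 6-fold and Cxadr about 4.5-fold, while Tjp1 and Cldn3 about doubled and Cdh2, which encodes N-cadherin, stayed at the WT level. Of the 8 members with a mean of at least 1 FPKM, which were tested, 7 were called higher and 0 lower. These 7 include Ocln, which passed the filter on low values only through its KO libraries and so had to differ. Over all 15368 genes tested 38% were called higher (86.2% in either direction), so that a called rise was common in this comparison. The members' median log2 change was 2.11, beside -0.29 for all genes tested. All 7 of these, and 93.4% of all genes, had libraries that did not overlap between KO and WT. Calls were made with limma where the p, adjusted after Benjamini and Hochberg over the whole set of 15368, was under 0.05; log2 changes are of FPKM + 1. This background depends on the scaling between libraries: with TPM 44.4% of genes were called higher and 41.7% lower, and with quantile normalization 43.4% and 41.7%, where 48.1% were lower as deposited. With TPM or quantile normalization Cdh2 is also called and 8 of 8 members are higher. In bulk libraries more cells of a type and more RNA per cell cannot be told apart. The summed Sertoli markers were 14.0-fold and the Leydig markers 23.9-fold higher in KO than in WT; their part in these changes was not tested.

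**Figure D1:**
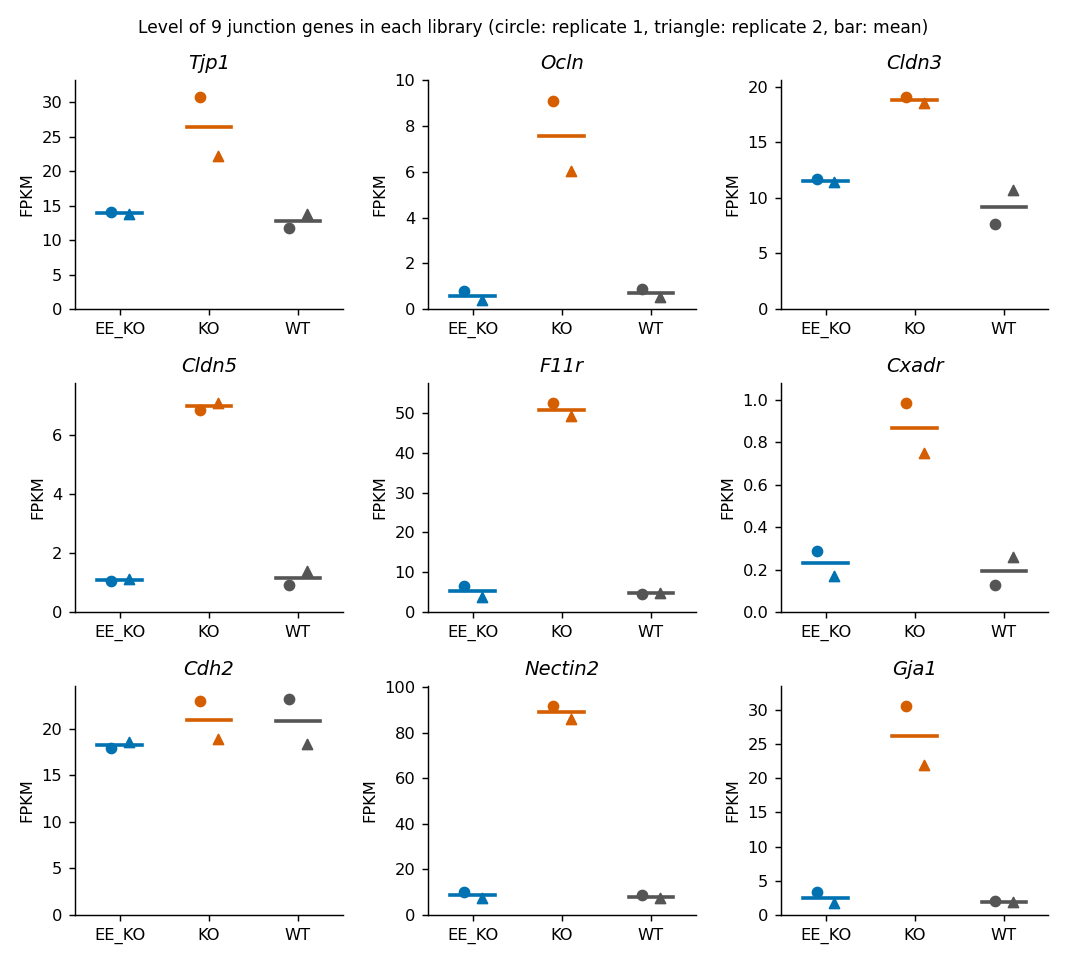
FPKM of the 9 junction genes (vertical axes, each from 0) in the libraries labelled EE_KO, KO and WT; points are libraries and bars are means of 2. In 8 panels both KO libraries lie above the EE_KO and WT libraries, while the Cdh2 levels of KO (23.0 and 18.8 FPKM) lie within the range of WT (23.2 and 18.3).

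Among the tight junction genes, Tjp1 (ENSMUSG00000030516, chromosome 7, 65296165 to 65527781, minus strand) encodes ZO-1, the scaffold that ties strands to actin. Tjp1 had 14.1 and 13.8 FPKM in EE_KO, 30.7 and 22.2 in KO and 11.8 and 13.8 in WT. Both KO libraries lay above the other 4, but they differed from each other by 1.38-fold. The KO mean was 26.5 ± 6.02 FPKM and the WT mean 12.8 ± 1.41 (SD, n = 2 each), a log2 change of 0.98 (SE 0.16, adjusted p = 0.000604).

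Ocln (ENSMUSG00000021638, chromosome 13, 100496507 to 100552718, minus strand) encodes occludin, a membrane protein of the strands. Its levels were 0.776 and 0.411 FPKM in EE_KO, 9.11 and 6.05 in KO and 0.897 and 0.532 in WT. These rest on 48 and 26 reads in EE_KO, 691 and 444 in KO and 53 and 34 in WT. Only the KO libraries were above 1 FPKM, so Ocln entered the test through KO and had to differ. Its KO mean of 7.58 ± 2.16 FPKM was 10.6-fold the WT mean of 0.714 ± 0.258 (SD, n = 2 each). On the log2 scale Ocln rose by 2.31 (SE 0.23, adjusted p = 2.38e-05), and by 3.42 in limma's voom fit of the recovered reads, where no 1 FPKM is added.

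The claudins seal the strands, and the pair listed here differed in level and in change. Cldn3 (ENSMUSG00000070473, chromosome 5, 134986214 to 134987472, plus strand), a claudin known from newly forming barrier junctions in the mouse, had 11.7 and 11.4 FPKM in EE_KO, 19.1 and 18.6 in KO and 7.60 and 10.7 in WT. It rose in KO against WT by 0.98 (SE 0.16, adjusted p = 0.000477), and both KO libraries lay above the other 4. Its WT libraries overlapped those of Nectin2 in level. Exons of Cldn3 share 40 bases (3.18% of its exon length) with Wbscr25 on the opposite strand, which had 18.54 and 32.02 FPKM in EE_KO, 0.0263 and 0.190 in KO and 12.8 and 25.7 in WT. The sources used here do not give the strand of the reads, so reads over the shared bases cannot be assigned. Cldn5 (ENSMUSG00000041378, chromosome 16, 18776847 to 18778262, plus strand), also a claudin of blood vessel walls, had 1.06 and 1.13 FPKM in EE_KO, 6.88 and 7.11 in KO and 0.908 and 1.40 in WT. Its KO libraries were close together and apart from the other 4. Cldn5 rose by 1.90 (SE 0.16, adjusted p = 1.16e-05), and by 2.60 in the voom fit. Beside it, the 15 endothelial markers summed to 10.4 and 14.0 FPKM in EE_KO, 20.2 and 20.1 in KO and 11.4 and 11.7 in WT, and none of them was at 0. Of the 4 endothelial markers tested 2 rose (Robo4 and Cdh5) and 2 fell (Sox17 and Sox18), and Pecam1 stood at 0.581 and 0.499 FPKM in KO and 0.356 and 0.382 in WT. Their part in the Cldn5 change was not tested.

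Among the adhesion molecules of the immunoglobulin family, F11r and Nectin2 reached the highest KO levels of the 9 genes. F11r (ENSMUSG00000038235, chromosome 1, 171437535 to 171464603, plus strand) encodes JAM-A, which sits beside the tight junction strands. F11r had 6.59 and 3.84 FPKM in EE_KO, 52.4 and 49.3 in KO and 4.53 and 4.84 in WT. The lowest KO library was 10.2-fold above the highest WT library, and the log2 change was 3.19 (SE 0.20, adjusted p = 2.38e-06). Nectin2 (ENSMUSG00000062300, chromosome 7, 19716644 to 19750483, minus strand) encodes the nectin that Sertoli cells set against nectin-3 of spermatids. Nectin2 had 9.91 and 7.57 FPKM in EE_KO, 91.7 and 86.2 in KO and 8.53 and 7.64 in WT. Its KO mean was 11.01-fold the WT mean (89.0 ± 3.87 against 8.08 ± 0.626 FPKM, SD, n = 2 each), the change with the smallest p among the members (3.31, SE 0.14, adjusted p = 3.55e-07). The antisense gene Gm20512 shares 135 bases (3.86%) of its exons and was not called (0.21, SE 0.23, adjusted p = 0.42).

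Cxadr (ENSMUSG00000022865, chromosome 16, 78301489 to 78359774, plus strand), the coxsackievirus and adenovirus receptor, was the lowest of the 9 genes. With 0.286 and 0.172 FPKM in EE_KO, 0.985 and 0.747 in KO and 0.125 and 0.259 in WT, its mean over the 6 libraries was below 1 FPKM and it was not tested with the others. The reads behind these levels were 31 and 19 in EE_KO, 131 and 96 in KO and 13 and 29 in WT. Without the filter on low values, with 35425 genes tested, Cxadr rose in KO against WT by 0.65 (SE 0.12, adjusted p = 0.00709) and fell in EE_KO against KO by 0.60 (SE 0.12, adjusted p = 0.00958). Cxadr exons share 695 bases (9.39%) with Btg3 on the opposite strand. Btg3 stood at 4.08 and 3.40 FPKM in EE_KO, 32.9 and 32.9 in KO and 3.45 and 4.54 in WT, the same direction as Cxadr at a far higher level, and reads over the shared bases cannot be told apart.

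Cdh2 (ENSMUSG00000024304, chromosome 18, 16588877 to 16809246, minus strand) encodes N-cadherin, the classical cadherin of the basal ectoplasmic specialization, which Sertoli cells and germ cells both carry. Its levels were 17.9 and 18.5 FPKM in EE_KO, 23.0 and 18.8 in KO and 23.2 and 18.3 in WT. These levels rest on 2113 to 3326 reads per library, with 3326 and 2640 in KO and 2619 and 2240 in WT. The log2 change of KO against WT was 0.01 (95% interval -0.34 to 0.36, adjusted p = 0.947), so that a doubling lies outside the interval on the deposited scale. The call depends on the scaling between libraries: Cdh2 stood at 0.45 with TPM (adjusted p = 0.0154) and at 0.48 with quantile normalization (adjusted p = 0.0107), both called. The median of all genes moved from -0.29 as deposited to 0.09 with TPM and 0.03 with quantile normalization. Relative to that median Cdh2 was 0.30 above it as deposited, 0.36 with TPM and 0.45 with quantile normalization. Whether the change of Cdh2 differs from that of another member was not tested. On the deposited scale its interval ended at 0.36, and those of the 7 called members started at 0.60 or above. Intervals for the other scalings are not given.

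Gja1 (ENSMUSG00000050953, chromosome 10, 56377330 to 56402513, plus strand) encodes connexin 43, the channel protein of gap junctions among Sertoli cells and between Sertoli and germ cells. Gja1 had 3.38 and 1.71 FPKM in EE_KO, 30.5 and 21.9 in KO and 1.98 and 1.82 in WT. Its mean in KO was 13.8-fold that in WT (26.2 ± 6.10 against 1.90 ± 0.110 FPKM, SD, n = 2 each), the largest ratio among the 9, with library ratios from 11.1 to 16.8. The log2 change was 3.21 (SE 0.25, adjusted p = 6.60e-06).

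**Figure D2:**
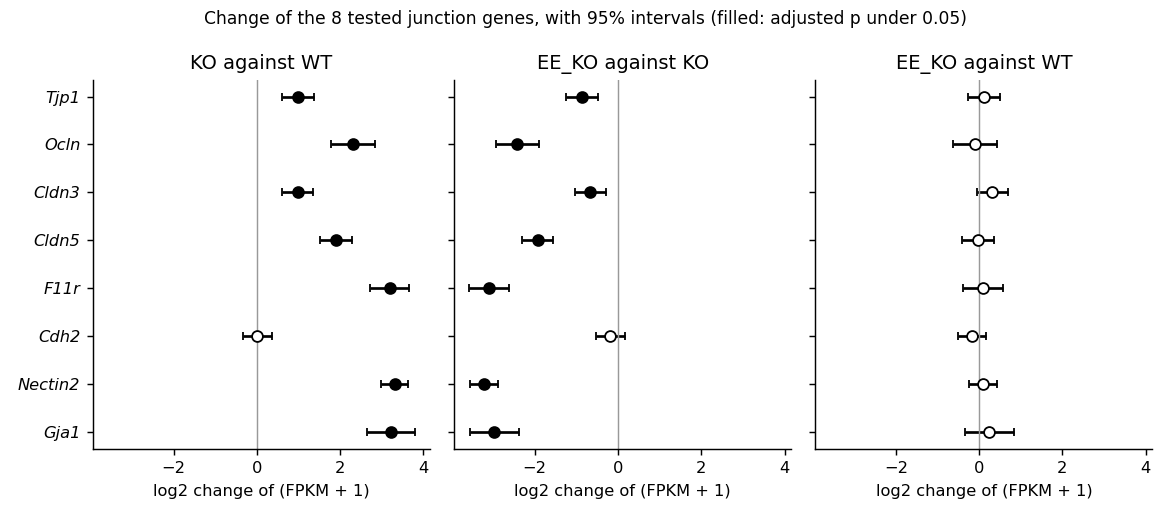
Log2 change of FPKM + 1 (horizontal axes) with its 95% interval for the 8 tested junction genes in the 3 comparisons; filled points are called at an adjusted p under 0.05. In KO against WT 7 genes lie to the right of 0 and in EE_KO against KO the same 7 lie to the left, Cdh2 straddles 0 in both on the deposited scale (called with TPM and quantile normalization), and no gene is called in EE_KO against WT.

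EE_KO against KO compares these levels between mutants with and without added MAPS. Between these groups the summed Sertoli markers went from 6676 and 6423 FPKM in KO to 748 and 385 in EE_KO. The summed pachytene markers went from 270.1 and 314.5 FPKM in KO to 6025 and 6503 in EE_KO. Their part in the changes below was not tested, and here too cell numbers and RNA per cell cannot be told apart. The genes that had been higher in KO were lower in EE_KO: Nectin2 averaged 8.74 ± 1.65 FPKM in EE_KO and 89.0 ± 3.87 in KO, and F11r 5.21 ± 1.95 in EE_KO and 50.9 ± 2.24 in KO (SD, n = 2 each). Of the 8 members tested 7 were called lower and 0 higher, where 37.8% of all genes were called lower (85.6% in either direction). These 7 again include Ocln, which passed the filter on low values only through KO and so had to differ here too. The libraries of all 8 did not overlap between EE_KO and KO, as for 93.6% of all genes. This comparison shares the KO libraries with KO against WT, so its values are not a second test of the same change. Nectin2 changed by -3.22 (SE 0.14, adjusted p = 4.38e-07), F11r by -3.10 (SE 0.20, adjusted p = 3.04e-06) and Gja1 by -2.96 (SE 0.25, adjusted p = 1.09e-05). Ocln fell by 2.41 (SE 0.23), Cldn5 by 1.93 (SE 0.16), Tjp1 by 0.86 (SE 0.16) and Cldn3 by 0.66 (SE 0.16, adjusted p = 0.00454). Cdh2 was not called on the deposited scale (-0.18, 95% interval -0.53 to 0.16, adjusted p = 0.276), although both EE_KO libraries lay below both KO libraries. It was called lower with TPM (-0.59, adjusted p = 0.00441) and with quantile normalization (-0.61, adjusted p = 0.00354).

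In EE_KO against WT no junction gene was called. Over all genes 0.0455% were called by limma (0.026% higher and 0.0195% lower), and 7.48% had an unadjusted p under 0.05, while none of the 8 members did. The member nearest to a call was Cldn3, with EE_KO at 11.5 ± 0.178 FPKM and WT at 9.15 ± 2.19 (SD, n = 2 each), a log2 difference of 0.32 (95% interval -0.05 to 0.69, unadjusted p = 0.0777 from limma, adjusted p = 0.719). Gja1 differed by 0.25 (-0.33 to 0.83) and F11r by 0.09 (-0.38 to 0.56). The interval of Ocln was -0.63 to 0.42. The absence of a call does not show equal levels. The EE_KO and WT libraries did not overlap for Tjp1 and Cldn3, 2 of 8 members, where 36.5% of all genes did not overlap.

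Libraries of a group differed for some members. In EE_KO replicate 1 over replicate 2 was 1.98 for Gja1, 1.89 for Ocln, 1.72 for F11r, 1.67 for Cxadr and 1.31 for Nectin2. For Tjp1 (1.02), Cldn3 (1.02), Cdh2 (0.965) and Cldn5 (0.937) the same ratio was close to 1. The summed Sertoli markers gave 1.94 between the same libraries. In KO replicate 1 over replicate 2 was 1.505 for Ocln, 1.39 for Gja1, 1.38 for Tjp1, 1.32 for Cxadr and 1.22 for Cdh2, where the Sertoli sum gave 1.04, and F11r, Nectin2, Cldn3 and Cldn5 lay between 0.967 and 1.06. In WT the ratio was 1.69 for Ocln, 0.485 for Cxadr, 0.649 for Cldn5 and 0.710 for Cldn3, where the Sertoli sum gave 0.998.

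The order of levels per gene length also differed between groups. In WT Cdh2 (20.8 ± 3.43 FPKM) led, followed by Tjp1, Cldn3, Nectin2 (8.08 ± 0.626), F11r, Gja1, Cldn5, Ocln and Cxadr, and Cldn3 and Nectin2 were the neighbours whose libraries overlapped. The same order held in EE_KO, with no overlap between neighbours. In KO the order was Nectin2, F11r, Tjp1, Gja1, Cdh2, Cldn3, Ocln, Cldn5 and Cxadr, and Tjp1, Gja1, Cdh2 and Cldn3 overlapped in turn, as did Ocln and Cldn5. Cdh2 made up 27.2 and 31.6% of the summed FPKM of the 9 genes in EE_KO, 8.68 and 8.16% in KO and 39.0 and 30.9% in WT. Nectin2 made up 15.1 and 12.9% in EE_KO, 34.7 and 37.3% in KO and 14.3 and 12.9% in WT. The 9 genes together came to 65.7 and 58.6 FPKM in EE_KO, 264 and 231 in KO and 59.5 and 59.3 in WT.

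Levels of the junction genes were also set against the Sertoli markers of the same library. Gja1 stood at 0.452 and 0.444 FPKM per 100 FPKM of summed Sertoli markers in EE_KO, 0.457 and 0.341 in KO and 0.424 and 0.390 in WT. F11r stood at 0.882 and 0.998 in EE_KO, 0.785 and 0.767 in KO and 0.973 and 1.04 in WT on this scale. Thus the ratio of Gja1 to Sertoli markers in KO lay around those of the other groups, and that of F11r somewhat below. Ocln (0.104 and 0.107 in EE_KO, 0.136 and 0.0942 in KO, 0.192 and 0.114 in WT) overlapped between the KO and WT libraries, and Nectin2 (1.33 and 1.97 in EE_KO, 1.37 and 1.34 in KO, 1.83 and 1.64 in WT) was lower in KO than in WT by less than 1.5-fold in each pair of libraries. Tjp1 had 1.89 and 3.59 in EE_KO, 0.460 and 0.346 in KO and 2.53 and 2.95 in WT. Cldn3 had 1.56 and 2.97 in EE_KO, 0.285 and 0.289 in KO and 1.63 and 2.29 in WT. For Tjp1, Cldn3 and Cdh2 (2.39 and 4.82 in EE_KO, 0.344 and 0.293 in KO, 4.98 and 3.93 in WT) both KO libraries were far below the other 4. Cldn5 had 0.142 and 0.294 in EE_KO, 0.103 and 0.111 in KO and 0.195 and 0.300 in WT. Cxadr had 0.0383 and 0.0446 in EE_KO, 0.0148 and 0.0116 in KO and 0.0269 and 0.0554 in WT. For Cldn5 and Cxadr the KO libraries were also below the other 4, by less than for Tjp1, Cldn3 and Cdh2. These ratios are a description, since an exact two-sided permutation test of 2 against 2 libraries cannot go below 0.333. Clu, a secreted Sertoli protein, supplied 33.6 to 38.6% of the marker sum in each library.

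**Figure D3:**
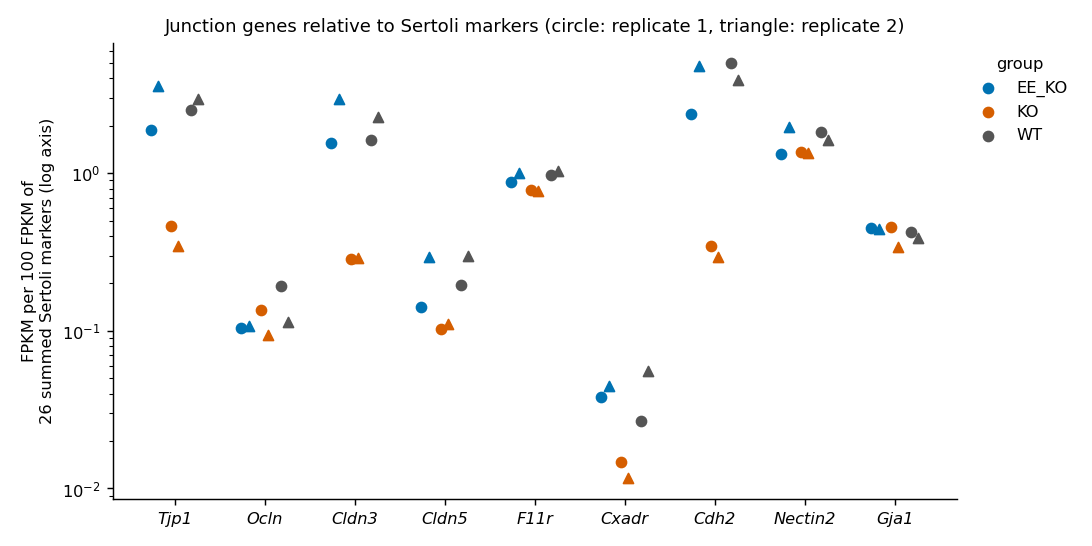
FPKM of each junction gene per 100 FPKM of 26 summed Sertoli markers (vertical log axis) in each library of EE_KO, KO and WT. The KO libraries of Gja1 (0.457 and 0.341) lie on both sides of WT (0.424 and 0.390), while Tjp1, Cldn3 and Cdh2 lie lower in KO (0.285 to 0.460) than in WT (1.63 to 4.98).

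Other junction genes were counted in 5 lists, which were chosen with earlier results of these data known. Beside these counts, 38% of all genes were higher and 48.1% lower in KO against WT. Of 23 further tight junction genes 13 were tested, 11 rose and 1 fell, with a median log2 change of 1.65. Cldn11, the claudin that Sertoli strands cannot do without in mice, had 39.4 and 20.8 FPKM in EE_KO, 394 and 334 in KO and 24.4 and 21.8 in WT (3.92, SE 0.26, adjusted p = 2.87e-06). Its level in KO was thus several times that of Nectin2. Cgn, which encodes the strand linker cingulin, rose by 3.61 (SE 0.25), Cldn12 by 1.89 (SE 0.13) and Cldn23 by 2.15 (SE 0.16). Cldn23 stayed at or below 0.148 FPKM in EE_KO and 0.107 in WT, so it entered the test through KO. The same holds for Cldn7 (means of 0.849 FPKM in EE_KO, 3.17 in KO and 0.831 in WT). It also holds for Magi1 (0.624 in EE_KO, 4.15 in KO and 0.661 in WT). The rises of these genes were thus set by the filter on low values. The scaffold gene Magi2 went the other way, averaging 0.343 ± 0.126 FPKM in KO and 3.95 ± 0.659 in WT (-1.88, SE 0.16, adjusted p = 1.27e-05). Magi2 was above 1 FPKM only in EE_KO and WT, so its fall was set by the filter too.

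Of 26 genes of adherens junctions and ectoplasmic specializations 21 were tested, and 19 rose and 1 fell (median 2.03). Ctnnd2 among them averaged 0.783 FPKM in EE_KO, 1.77 in KO and 0.605 in WT. It passed the filter on low values only through KO and so had to differ. Ctnna1, the alpha-catenin that links cadherins to actin, stood at 69.5 ± 0.873 FPKM in KO and 7.42 ± 0.195 in WT (3.07, SE 0.13), although the cadherin gene Cdh2 itself was level on the deposited scale. Itgb1 (integrin beta 1) rose by 3.21 (SE 0.16) and Zyx (zyxin) by 3.40 (SE 0.19). Nectin3, the partner of nectin-2 that spermatids carry, moved against the list. Nectin3 had 35.0 and 39.2 FPKM in EE_KO, 1.64 and 1.91 in KO and 39.1 and 33.3 in WT. It fell in KO by 3.74 on the log2 scale (SE 0.13, adjusted p = 1.47e-07) while Nectin2 rose, so that Nectin2 was the lower of the pair in EE_KO and WT and the higher in KO. Beside Nectin3, the 12 spermatid markers summed to 2224 and 3268 FPKM in EE_KO, 22.5 and 22.5 in KO and 1739 and 3521 in WT; their part was not tested.

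Gap junction and desmosome genes were mostly too low to test. Of 19 listed 5 were tested, of which 1 rose and 3 fell (median -0.47). Gja6, a connexin gene of the X chromosome, rose by 2.57 (SE 0.28, adjusted p = 4.75e-05), while the connexin gene Gjd3 (-0.95, SE 0.16) and the plakophilin gene Pkp4 (-0.47, SE 0.13, adjusted p = 0.00846) fell. Pkp4 lost its call with TPM (-0.11), leaving 2 that fell. Gja1 thus stood beside connexin genes of both directions. Polarity complexes set where the barrier forms in an epithelial cell. Of their 15 genes 11 were tested, 6 rose and 3 fell (median 0.91). Pard6b rose by 3.38 (SE 0.19), the small GTPase gene Cdc42 by 2.68 (SE 0.12) and Prkci, an atypical protein kinase C, by 2.58 (SE 0.16). Pard6a, the paralogue of Pard6b, averaged 24.1 ± 2.37 FPKM in EE_KO, 4.13 ± 0.225 in KO and 27.6 ± 0.533 in WT, a fall of 2.48 in KO (SE 0.12, adjusted p = 6.25e-07). Scrib (-0.70, adjusted p = 0.000236) and Mpp5 (-0.66, adjusted p = 0.00258) fell as deposited, but Scrib lost its call with TPM (-0.27) and turned to 0.02 with quantile normalization, and Mpp5 lost its call with TPM (-0.30), leaving 1 of the 3 that fell with TPM and 2 with quantile normalization.

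Of 19 regulators of the barrier 16 were tested, of which 14 rose and 2 fell (median 1.75). Sox9 (3.61, SE 0.24), Wt1 (3.33, SE 0.22) and Sox8 (2.59, SE 0.19), transcription factors of Sertoli cells that also stand in the Sertoli marker list, rose, as did the kinase gene Akt1 (1.88, SE 0.14). Mtor, a growth kinase, fell by 1.41 (SE 0.12, adjusted p = 9.92e-06). Stk11 fell by 0.39 as deposited (adjusted p = 0.00837), lost its call with TPM (0.04) and quantile normalization (0.23), and changed sign in both. None of the tested genes of the 5 lists was called in EE_KO against WT by limma, where only 0.0455% of all genes were called.

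**Figure D4:**
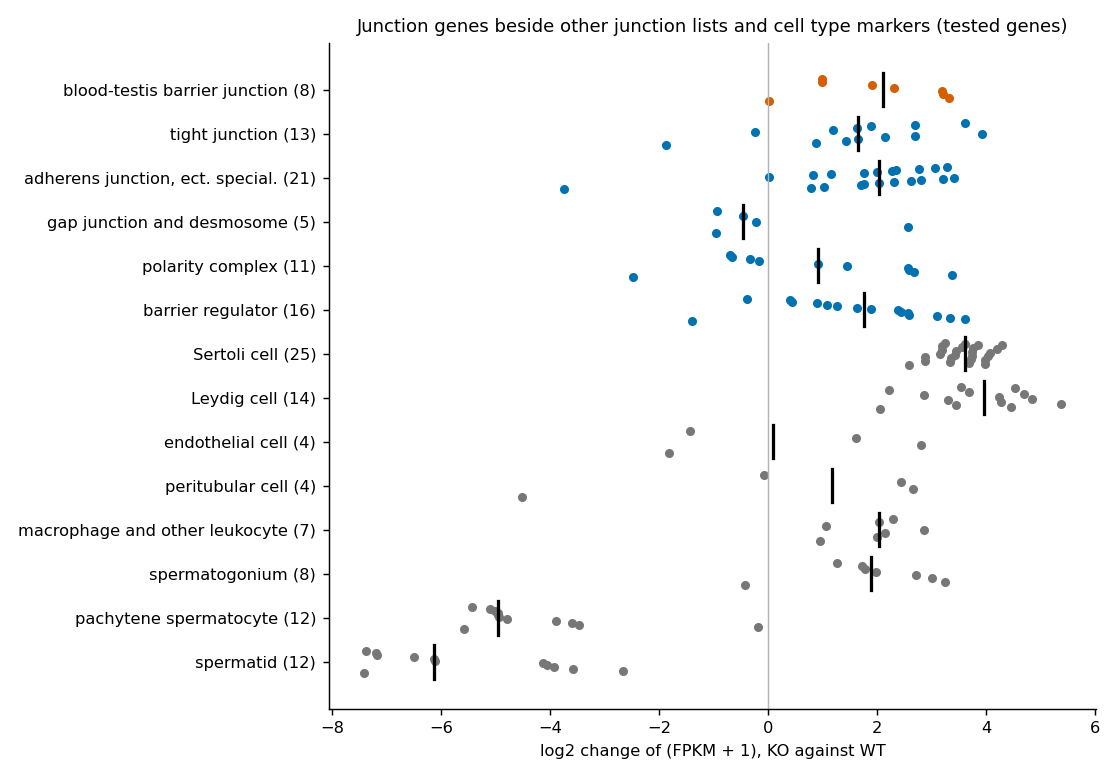
Log2 change of FPKM + 1 in KO against WT (horizontal axis) for the tested genes of the 9 junction genes, 5 further junction lists and 8 cell type marker lists; each point is a gene, black bars are medians and numbers in brackets count tested genes. The junction genes (median 2.11) lie between 0 and 3.31, below the median of the Sertoli markers (3.61).

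Changes of 8 marker lists in KO against WT are given beside those of the junction genes. Over all genes tested 38% were called higher and 48.1% lower. Differences between lists were not tested. Every one of the 25 tested Sertoli markers rose, by 2.59 to 4.29 (median 3.61), with Defb36, Kitl and Gata4 at the smallest p. Nectin2, Gja1 and F11r fell within this range, and Ocln, Cldn5, Tjp1, Cldn3 and Cdh2 below it on this scale. Ocln stood at 3.42 in the voom fit, but no voom range of the Sertoli markers is given, so that value cannot be set against this range. All 14 Leydig markers rose (median 3.95, with Star, Cyp11a1 and Akr1cl at the smallest p). So did 7 of 7 tested leukocyte markers (median 2.02, with Cd14, C1qa and Cd74) and 7 of 8 spermatogonial markers (median 1.88, with Uchl1, Stra8 and Kit). The 12 leukocyte markers summed to only 9.99 and 8.36 FPKM in EE_KO and 8.41 and 8.50 in WT, against 59.4 and 47.3 in KO. Any listed gene below 1 FPKM in EE_KO and WT could enter the test only through KO, so that its rise was set by the filter. The count of leukocyte rises is therefore a description. The spermatogonial marker that fell, Id4 (-0.42), lost its call with TPM (-0.01) and quantile normalization (-0.13). Of 4 tested peritubular markers 2 rose, Acta2 and Pdgfra, while Actg2 fell. The summed level of all listed peritubular markers in KO was 68.8% of WT. Of 12 pachytene markers 11 fell (median -4.95, with Tdrd6, Meig1 and Nme5 at the smallest p), as did all 12 spermatid markers (median -6.13, with Zpbp, Catsper3 and Smcp). The other pachytene marker, Sycp1, was not called by limma as deposited (-0.19, adjusted p = 0.216) or with TPM (0.25, adjusted p = 0.15). It was called higher with quantile normalization (0.45, adjusted p = 0.0126).

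Genes with the most similar pattern were sought by the Euclidean distance of log2(FPKM + 1), centred on each gene's mean, over the 6 libraries and 15368 tested genes. Nearest to Nectin2 were Ltbp1 (distance 0.118), Gpx3 (0.124) and St6galnac6 (0.138), and nearest to Gja1 were Sfxn3 (0.105), Pld3 (0.126) and Sulf2 (0.139). Ltbp1 and Gpx3 were below 1 FPKM in EE_KO and WT and entered the test through KO. Ltbp1 had 15.0 and 13.5 FPKM in KO and 0.491 and 0.397 in WT. The added 1 FPKM shrinks such changes, so a small distance does not show a like ratio of FPKM. For the members with the smallest changes, the nearest were Eif1a (0.0809), Dixdc1 (0.0903) and Mlec (0.107) for Cdh2, and Slc25a17 (0.104), Tyw5 (0.143) and Fam122a (0.154) for Cldn3. Within the 9 genes, Nectin2 and F11r were nearest to each other (0.298), Gja1 was nearest to F11r (0.333), and Tjp1 and Cldn3 to each other (0.409), while Cdh2 was 1.08 from its nearest, Tjp1.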

How the data were processed

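Per the labels' protocols, a SMARTer kit turned 1.3 µg total RNA per sample into each of the 6 libraries. The deposited values are FPKM per gene, computed by the authors, per the file headers; the submitters' processing notes name GRCm38 and mm10. The sources used here do not name the aligner, the counter, the annotation release or the read strand. Symbols, positions and exon-union lengths came from GENCODE M21 (54495 genes matched, 37 did not). FPKM times length gave whole reads for 96.8 to 97.0% of values above 0 (tolerance 0.01 read), and for 54 of 54 member values (tolerance 0.01%, or 0.01 read up to 100 reads).

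Genes with a mean of at least 1 FPKM were tested (15368; 533 short RNAs and 6 repeated symbols left out). All 6 libraries entered 1 model on log2(FPKM + 1) in limma 3.58.1 (R 4.3.3) with a mean-variance trend and no replicate block; p-values were adjusted after Benjamini and Hochberg over all genes tested, without a count model because the unit is FPKM. The added 1 FPKM understates changes of low genes. The pipeline was run on simulated data in which few genes changed, in equal numbers up and down. That run cannot speak to the scaling between libraries here, where most genes were called. Members and lists were chosen with earlier results of these data known. Genes named are all 9 members, per junction list up to 4 genes of smallest p in KO against WT and up to 3 called against the majority, per marker list 3, and the 3 genes of nearest pattern for 4 members (1 gene that the rule names is counted in its list but not reported here by name); F11r, whose change is close to that of Gja1, was not among these 4. Cldn7, Magi1 and Ctnnd2 are named besides, for how they passed the filter. Alternatives were pseudocounts of 0.1 and 0.5, no filter, a mean of at least 5 FPKM, TPM, quantile normalization, the 2 groups alone, a replicate block, voom on recovered reads and each library left out. The voom fit took its library sizes from the deposited FPKM scaling, so only TPM and quantile normalization change the scaling between libraries. Figures were drawn with matplotlib 3.10.9 and tables made in Python 3.11.15 with scipy 1.17.1, numpy 2.4.6 and pandas 2.3.3.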

Additional observations from a re-analysis of the deposited data

How the results depend on the processing

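Over 15 alternatives, 350 of 354 recomputed member changes stayed on the same side of the threshold as the reported value, and no called value changed sign. The other 4 were Cdh2 with TPM and quantile normalization, which called it higher in KO against WT (0.45 and 0.48) and lower in EE_KO against KO (-0.59 and -0.61); these scalings differ from the deposited one by moving the median of all genes from -0.29 to 0.09 and 0.03. The called members, 7 of 8 in both KO against WT and EE_KO against KO, numbered 8 of 8 with TPM and quantile normalization, 8 of 9 without a filter, 5 of 6 with at least 5 FPKM, and 7 without each library in turn, where a lone library is assumed to vary like the other groups. No member was called in EE_KO against WT under any alternative, where 0.0455% of all genes were called in the main fit. The filters, the model of the 2 groups alone and the replicate block leave the log2 changes as they are. They alter only the p-values, so they do not check the size of a change. Replicate numbers are shared across groups, but deviations of same-numbered libraries correlated by only -0.031 to 0.091, so the numbers are not taken to pair them; with a replicate block 7, 7 and 0 members were called and no member's call changed. Low levels respond to the pseudocount: Ocln in KO against WT was 2.31 as reported and 3.25 with 0.1 FPKM added. Depth limits Cxadr (13 to 131 reads), Cldn5 (18 to 175) and Ocln (26 to 691).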

Other observations

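Values of further adhesion and junction genes of the same lists are given as a description, since they were chosen after their values were seen. Jam2, a relative of F11r, had 3.38 and 1.76 FPKM in EE_KO, 27.1 and 18.9 in KO and 2.65 and 2.71 in WT. Jam3, known in mice from spermatids as well as Sertoli cells, had 6.34 and 5.05 FPKM in EE_KO, 16.2 and 16.5 in KO and 4.98 and 5.93 in WT. Cadm1, an adhesion molecule of germ cells, had 7.06 and 6.73 FPKM in EE_KO, 30.9 and 26.7 in KO and 6.42 and 6.13 in WT. For these 3 genes both KO libraries lay above the other 4, as they did for Espn, which bundles actin at ectoplasmic specializations (20.5 and 11.3 FPKM in EE_KO, 96.2 and 100.8 in KO, 14.4 and 12.9 in WT). Other adhesion genes lay the other way, as Nectin3 did. Clmp, of the same family as Cxadr, had 1.15 and 1.08 FPKM in EE_KO, 0.0970 and 0.201 in KO and 0.934 and 0.907 in WT. Cdh3, which encodes P-cadherin, had 0.888 and 0.869 FPKM in EE_KO, 0.178 and 0.302 in KO and 1.92 and 1.01 in WT.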
